A study of Mus musculus with 27 samples.

Results

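The Cyp3a family of the mouse was followed through 27 liver libraries by the rows of 9 gene symbols, Cyp3a11, Cyp3a13, Cyp3a16, Cyp3a25, Cyp3a41a, Cyp3a41b, Cyp3a44, Cyp3a57 and Cyp3a59. All 9 were found in each of the 4 deposited tables, which list 17655 genes in all. Levels were CPM, the counts relative to the library total, scaled between libraries by TMM, and FPKM values, which also divide by transcript length, were used to rank one gene against another. The sum of the 9 rows is given as well, because reads of near-identical genes can be split among them.

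CYP3A proteins are cytochrome P450 monooxygenases of the endoplasmic reticulum. They hydroxylate steroids, bile acids and a large share of drugs, using electrons passed on by cytochrome P450 reductase (Por) and cytochrome b5 (Cyb5a). In liver, the nuclear receptors PXR (Nr1i2) and CAR (Nr1i3) are known inducers of the family. Cyp3a11 is the main drug-inducible member in mouse liver, and Cyp3a16, Cyp3a41a, Cyp3a41b and Cyp3a44 are known as genes with higher levels in the liver of females, where the continuous pattern of growth hormone secretion acts through STAT5. These 4 are called the female-biased members here, from that background knowledge.

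Whole liver RNA of Kdm5b fl/fl mice was sequenced on a BGI platform, 3 mice in each of 9 groups, to ask how loss of the histone demethylase KDM5B in liver bears on alcohol-associated disease and its resolution. All groups were homozygous for the floxed allele, so the WT mice carry it too, and every mouse received a vector. WT mice received AAV-control, KO mice received AAV-CMV-Cre, in which the CMV promoter is active in many cell types, and HepKO mice received AAV8-TBG-Cre, in which the TBG promoter directs Cre to hepatocytes. WDA stands for a western diet given together with alcohol to drink. The groups called WDA (females with each of the 3 vectors, and WT and KO males) are labelled with 8 weeks of WDA, and the groups called Res (WT and KO of either sex) with 16 weeks of WDA and 4 weeks of resolution. The labels name the vector before the diet in WDA mice and between diet and resolution in Res mice, and they give no age. The feeding time on the labels of the WDA mice differs from the one in the study's methods. All WDA libraries carry experiment number 11 and all Res libraries experiment number 12. The paper describes resolution as a switch to chow and plain water, so the diet changed along with the alcohol. The stage, the diet, the time of the vector, the length of feeding and the experiment therefore cannot be told apart. The WDA and Res groups are different mice, so rose and fell below mean higher or lower in Res than in WDA. HepKO was measured only in WDA females.

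Each library held 14634602 to 19388251 counts (median 17944536). Kdm5b, the targeted gene, lay at 14.5 to 24.1 CPM in KO WDA females, at 8.3 to 17.4 in HepKO, at 20.6 to 22.0 in KO WDA males, at 10.7 to 13.2 in KO Res females and at 7.93 to 17.2 in KO Res males. In WT it lay at 21.5 to 31.2 in WDA females, 23.5 to 24.9 in WDA males, 16.6 to 17.4 in Res females and 18.8 to 19.7 in Res males. A count over the whole gene does not show how much of it was floxed out. The summed CPM of 4 genes of the Y chromosome was 0.350 to 2.10 in the 15 libraries labelled female and 87.6 to 157 in the 12 labelled male. The summed level of 6 hepatocyte markers was 69988 to 166670 CPM. Of 7 bile duct markers, all measured, the sum was 16.4 to 106 CPM in 22 libraries and higher in 5 that stand apart: KO WDA male 17 (533), WT WDA female 7 (469.8), WT Res female 13 (237), KO Res male 5 (199) and WT Res male 9 (156). Krt19, a keratin of bile duct cells, was at 2.75 to 7.08 CPM in these 5 and at 0 to 1.64 in the others. The same 5 had the lowest summed level of 8 pericentral hepatocyte markers, 1182 to 9368 CPM against a median of 11976 over all libraries. Fits without them are given for many of the results that rest on them, but not for all. In whole liver, fewer cells of a type and less RNA per cell cannot be told apart.

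The 9 genes lie on chromosome 5. In GRCm38.p6, Cyp3a13 spans 137892933 to 137925610, and the other 8 form a cluster that starts at 145345149 with Cyp3a57 and ends at 146114978 with Cyp3a59. In order from Cyp3a57 come Cyp3a16, Cyp3a41b, Cyp3a41a, Cyp3a44, Cyp3a11, Cyp3a25 and Cyp3a59, so 4 neighbours in the middle of the cluster are the female-biased members. In the GENCODE annotation, the transcript used for each gene has 13 exons, with a coding length of 1512 or 1515 bases. Over the coding sequence the 36 pairs of members were 74.2% to 99.9% identical (median 75.8%). Cyp3a41a and Cyp3a41b differed at 2 coding bases, Cyp3a25 and Cyp3a59 were 97.5% identical, Cyp3a41a and Cyp3a44 95.8%, and Cyp3a11 and Cyp3a41a 95.2%. Of all stretches of 100 bases in the Cyp3a41a transcript, 90.8% recurred without a mismatch in another member, and of those in Cyp3a41b 88.2%. The share was 5.58% for Cyp3a25, 5.61% for Cyp3a59, 2.79% for Cyp3a44, 0.312% for Cyp3a11, 0.123% for Cyp3a16 and 0 for Cyp3a13 and Cyp3a57. The split between Cyp3a41a and Cyp3a41b is therefore uncertain in these counts, and the sum of both rows is given beside them.

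The promoters of 5 members are shown. Of these, Cyp3a41a, Cyp3a44 and Cyp3a16 moved together and Cyp3a11 did not move with them, as described below. Cyp3a25 stands for the Cyp3a25, Cyp3a57 and Cyp3a59 branch by likeness of sequence only. Its levels did not follow those of Cyp3a59 (Spearman's rho 0.139 over 15 female libraries). Each sequence is the RefSeq reference of GRCm38.p6 from 250 bases before to 50 bases after a transcript start annotated by RefSeq, which can lie inside the gene span given above (by some bases in Cyp3a16, Cyp3a25 and Cyp3a44 of those shown, and far inside it in Cyp3a13, whose window is not printed), 5′ to 3′ along the gene, and capitals mark AGGTCA or AGTTCA, the single sites that nuclear receptors such as PXR and CAR are known to bind, on either strand.
Cyp3a41a (chr5:145720087-145720386, minus strand): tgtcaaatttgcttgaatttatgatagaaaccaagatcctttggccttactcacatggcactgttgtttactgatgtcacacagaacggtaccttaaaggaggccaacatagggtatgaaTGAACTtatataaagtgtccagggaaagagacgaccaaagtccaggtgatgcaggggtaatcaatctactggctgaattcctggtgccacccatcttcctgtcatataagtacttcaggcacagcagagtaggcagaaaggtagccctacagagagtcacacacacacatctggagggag
Cyp3a44 (chr5:145805825-145806124, minus strand): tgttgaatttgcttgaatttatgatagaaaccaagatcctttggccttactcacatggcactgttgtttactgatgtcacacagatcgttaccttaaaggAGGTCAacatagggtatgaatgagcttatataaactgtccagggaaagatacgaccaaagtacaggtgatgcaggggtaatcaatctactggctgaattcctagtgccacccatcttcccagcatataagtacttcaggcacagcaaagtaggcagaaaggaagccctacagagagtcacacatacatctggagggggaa
Cyp3a16 (chr5:145469674-145469973, minus strand): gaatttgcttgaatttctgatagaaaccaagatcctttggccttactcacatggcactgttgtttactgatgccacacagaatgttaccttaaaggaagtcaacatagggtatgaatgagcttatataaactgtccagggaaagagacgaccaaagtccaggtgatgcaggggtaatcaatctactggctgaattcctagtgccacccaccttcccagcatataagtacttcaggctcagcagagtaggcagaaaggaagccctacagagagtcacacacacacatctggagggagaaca
Cyp3a11 (chr5:145879805-145880104, minus strand): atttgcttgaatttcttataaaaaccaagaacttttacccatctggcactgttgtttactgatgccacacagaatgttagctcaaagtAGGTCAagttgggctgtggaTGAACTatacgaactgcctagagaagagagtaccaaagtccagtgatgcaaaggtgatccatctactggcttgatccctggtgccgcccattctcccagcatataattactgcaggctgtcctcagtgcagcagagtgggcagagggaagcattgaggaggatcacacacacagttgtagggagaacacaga
Cyp3a25 (chr5:146009569-146009868, minus strand): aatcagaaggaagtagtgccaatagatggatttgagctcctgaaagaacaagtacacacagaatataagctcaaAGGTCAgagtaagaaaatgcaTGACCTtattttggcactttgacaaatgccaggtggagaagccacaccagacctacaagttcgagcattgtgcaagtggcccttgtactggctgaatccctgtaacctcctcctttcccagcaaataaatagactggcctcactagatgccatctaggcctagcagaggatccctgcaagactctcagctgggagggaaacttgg

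The promoters of Cyp3a16 and Cyp3a44 were 93.4% identical, those of Cyp3a41a and Cyp3a44 93.0%, and that of Cyp3a41b, which is not printed, was 97.0% identical to Cyp3a41a. The Cyp3a11 promoter was 70.4% identical to that of Cyp3a41a, and the Cyp3a25 promoter 95.7% identical to that of Cyp3a59. Over the 36 pairs the median was 51.7%. AGGTCA, searched on both strands, occurred once in Cyp3a11 and Cyp3a44 and at 2 places in Cyp3a25, Cyp3a57 and Cyp3a59. AGTTCA occurred once in Cyp3a11, Cyp3a41a and Cyp3a41b. TTCNNNGAA, the pattern STAT5 is known to bind, did not occur in these windows of the 9 members, and neither AGGTCA nor AGTTCA occurred in Cyp3a13 or Cyp3a16. Of 27025 promoters of the same length, 16.0% held AGGTCA, 14% AGTTCA and 8.47% TTCNNNGAA. The marked matches do not overlap one another. These are matches of letters and were not tested for binding.

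Per transcript length, Cyp3a11 was the most abundant member in each of the 9 groups. Its group means were 1929 to 4284 FPKM, and in no group did its range touch that of the next member. Cyp3a25, a constitutive liver form, came next in 8 groups, with means of 241 to 568 FPKM, and its place was taken by Cyp3a41a in KO Res females (687 FPKM ± 223, SD, n = 3, against 451 ± 45.0 for Cyp3a25, without overlap). In WT Res females the ranges of Cyp3a25 and Cyp3a41a overlapped. Cyp3a13, the member outside the cluster, had means of 77.8 to 132 FPKM, and Cyp3a59, the close relative of Cyp3a25, 19.6 to 74.7. Cyp3a57 was near the floor in all groups, with means of 0.463 to 1.77 FPKM. The female-biased members spanned the widest range. Cyp3a41a had means of 0.127 FPKM in WT WDA males to 687 in KO Res females, Cyp3a44 0.01 to 36.9, Cyp3a41b 0.147 to 26.9 and Cyp3a16 0 to 26.8, each from the same lowest to the same highest group.

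**Figure D1:**
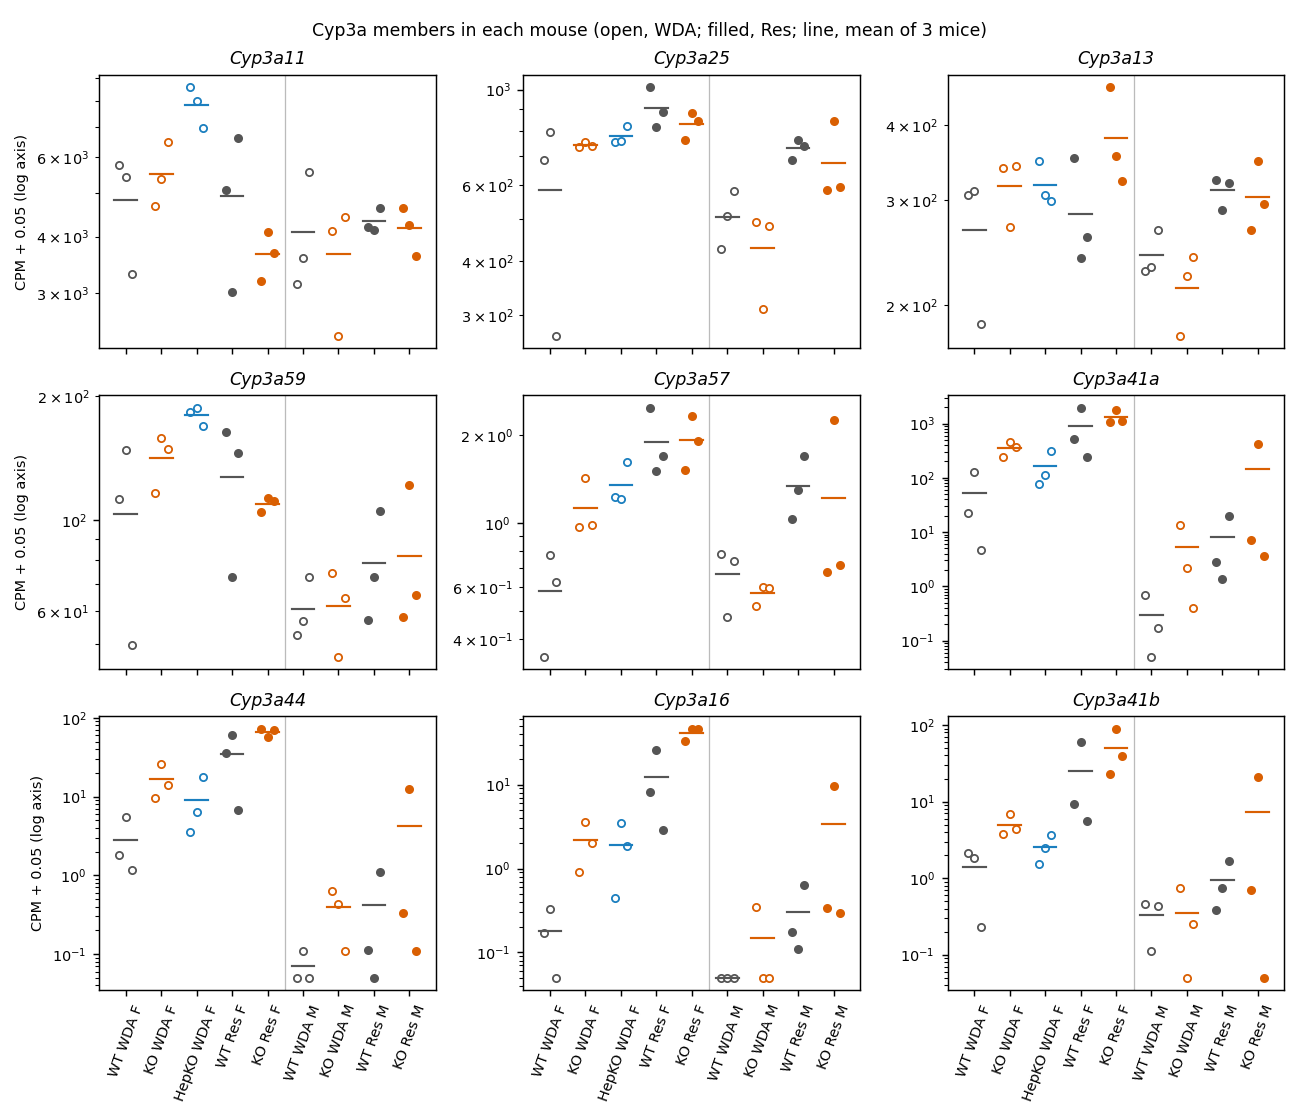
CPM of each of the 9 members in each of 27 mice, 1 panel per member, on a log axis after adding 0.05, with open points for WDA, filled points for Res, grey for WT, orange for KO, blue for HepKO, and a line at the mean of 3 mice. The panels of Cyp3a16, Cyp3a41a, Cyp3a41b and Cyp3a44 are higher in Res than in WDA for WT and for KO females and at most 19.6 CPM in males other than KO Res male 5, and the Cyp3a11 panel stays between 2408.5 and 8589.6 CPM.

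Summed over the 9 members, the family took 0.347% to 1.02% of a library's counts. In WDA females the sum was 6901, 6807 and 3815 CPM in WT (mice 5, 6 and 7), 6128, 7043 and 8090.1 in KO and 9958, 9376 and 8601 in HepKO. In Res females it was 7182, 6241 and 8177 CPM in WT and 5709.7, 7419 and 6214 in KO. In males it was 3856, 4377 and 6485 CPM in WT WDA, 4876, 2992 and 5221 in KO WDA, 5270.0, 5275 and 5813 in WT Res and 6039.6, 4587 and 5560.3 in KO Res. In these TMM-scaled CPM the 3 HepKO livers were the highest of the 27, and the lowest was KO WDA male 17. Both extremes depend on the scaling. As a share of library counts, WT Res female 13 was highest (1.02%) and WT WDA male 19 lowest (0.347%). By summed FPKM these libraries were also at the ends, at 5548.7 and 1865.1. The HepKO livers then had 4627.6 to 5453.7 FPKM, and KO WDA male 17 had 2085.4. Cyp3a11 made up 48.3% to 86.6% of the family's counts (median 80.0%), and its smallest share was in WT Res female 12, the mouse with the most Cyp3a41a. The 4 female-biased members together made up 0.153% to 33.5% of the family in females and 0.00276% to 0.394% in 11 of 12 males, with 7.77% in KO Res male 5. They made up 20.7%, 26.4% and 20.2% of the family in KO Res females and 7.85%, 33.5% and 3.08% in WT Res females. In the 15 females Cyp3a41b had 0.0117 to 0.0915 counts for each count of Cyp3a41a (median 0.0214).

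**Figure D2:**
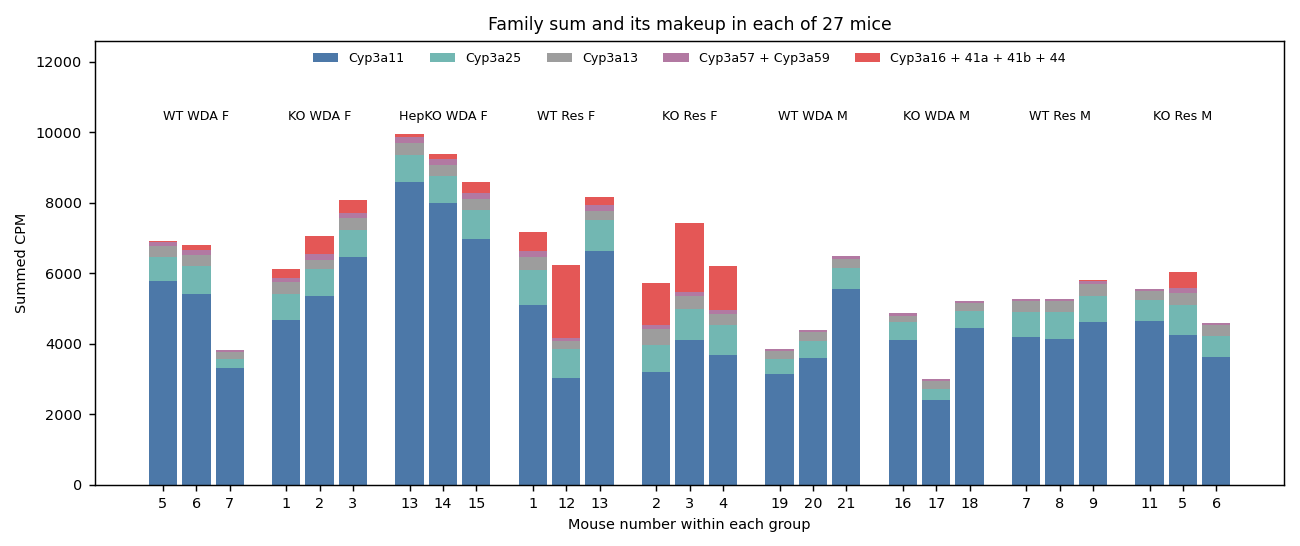
Stacked CPM of the 9 members in each mouse, 1 bar per mouse from 0, grouped by vector, stage and sex. Cyp3a11 is the tallest part of every bar (48.3% to 86.6%), the 4 female-biased members together take 0.00276% to 33.5%, and the 3 HepKO bars (8601 to 9958 CPM) are the tallest. This order of the bars holds with TMM scaling. As a share of library counts, WT Res female 13 was above the HepKO livers.

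Females and males on control vector were compared to see how far the known sex difference of the family was present. Cyp3a41a was at 22.7, 127 and 4.53 CPM in WT WDA females and at 0.626, 0 and 0.118 in WT WDA males, and at 511, 1944 and 237 against 2.75, 1.31 and 19.6 after resolution. Cyp3a44 was at 1.79, 5.37 and 1.11 CPM in the WDA females and in the WDA males at 0, 0.0605 and 0, of which the middle value is 1 count. At each stage all 3 females lay above all 3 males for both genes. The Cyp3a44 values of the WDA females came from 25 to 96.4 counts. Cyp3a41b (9.36, 59.9 and 5.50 CPM) and Cyp3a16 (8.17, 25.8 and 2.85 CPM) in WT Res females also lay above the WT Res males, who had 0.333 to 1.64 and 0.0593 to 0.583 CPM. In WDA, Cyp3a41b overlapped between the sexes, at 2.08, 1.81 and 0.181 CPM in WT females and 0.408, 0.0605 and 0.383 in WT males. Cyp3a16 had 0 counts in every WT WDA male and 2, 5 and 0 counts in the females, so no sex difference of Cyp3a16 was detectable at this depth.

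In WT WDA, 7 members passed the filter on low counts and 0 passed an adjusted p under 0.05 in edgeR's quasi-likelihood test, against 0.843% of all genes tested. At an unadjusted p under 0.05 there were 2 (14.2% of all genes), by DESeq2 2 (4.45%), and 2 members had groups that did not overlap (24.4%). These were Cyp3a44 (fitted log2 fold change 6.64, which rests on that 1 count in the males, SE 1.10, edgeR adjusted p = 0.0585) and Cyp3a41a (7.67, SE 1.65, edgeR adjusted p = 0.116). Without WT WDA female 7, 5 members passed in edgeR, Cyp3a44, Cyp3a41a, Cyp3a41b, Cyp3a59 and Cyp3a25, all higher in females. In WT Res, 9 were tested and 0 passed (0.545% of all genes), with 4 at an unadjusted p under 0.05 (9.03%), 4 by DESeq2 (2.13%) and 5 without overlap (15.4%). The 4 were Cyp3a44 (6.42, SE 1.13, edgeR adjusted p = 0.0655), Cyp3a16 (5.50, SE 1.04, adjusted p = 0.0847), Cyp3a41a (6.83, SE 1.31, adjusted p = 0.0920) and Cyp3a41b (4.78, SE 1.08, adjusted p = 0.165). Without WT Res female 13, Cyp3a44 and Cyp3a16 passed in edgeR, and without WT Res male 9 Cyp3a41a passed. The family sum was 0.26 (SE 0.34) higher in females on the log2 scale in WDA and 0.41 (SE 0.18) in Res, and neither passed.

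In KO females, the 4 female-biased members were higher in Res than in WDA, and Cyp3a11 was lower. Cyp3a16 was at 0.869, 3.57 and 1.98 CPM in KO WDA females and at 33.3, 46.1 and 45.4 in KO Res females. Cyp3a41a was at 246, 461 and 366 CPM in the WDA mice and 1053, 1769.5 and 1097 in the Res mice. Cyp3a41b was at 3.68, 6.88 and 4.28 CPM in WDA and 22.6, 89.2 and 39.7 in Res. Cyp3a44 was at 9.59, 25.7 and 14 CPM in WDA and 72.5, 56.9 and 70.6 in Res. In each of these 4 genes every Res liver was above every WDA liver. Cyp3a11 went the other way, at 4676, 5359 and 6473 CPM in WDA and 3195, 4102 and 3679.9 in Res, again without overlap.

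All 9 members were tested in this comparison and 5 passed edgeR's adjusted p under 0.05, against 20.4% of all genes. DESeq2 also gave 5 (20.8% of all genes), and 8 members did not overlap between the groups (40.4%). Cyp3a16 rose by 4.27 (log2, SE 0.35, edgeR adjusted p = 0.000319), Cyp3a41b by 3.35 (SE 0.47, adjusted p = 0.00264), Cyp3a44 by 2.02 (SE 0.29, adjusted p = 0.00296) and Cyp3a41a by 1.87 (SE 0.26, adjusted p = 0.00249). The sum of Cyp3a41a and Cyp3a41b, which does not depend on how their reads were split, rose by 1.90 (SE 0.26, edgeR adjusted p = 0.00246), and the sum of the 4 by 1.94 (SE 0.26, adjusted p = 0.00216). Cyp3a11 fell by 0.59 (SE 0.16, edgeR adjusted p = 0.0289). That call was lost without KO WDA female 2 (adjusted p = 0.0613) or 3 (0.0679), and without KO Res female 2 (0.0949) or 4 (0.0977), with the fall between 0.47 and 0.61 in these 4 fits. With 1 spread for all 9 groups, the calls of Cyp3a44 (edgeR adjusted p = 0.1496), Cyp3a41a (0.3998) and Cyp3a11 (0.1748) were lost at changes of 2.02, 1.87 and −0.59, and Cyp3a16 and Cyp3a41b passed. Neither sum passed in that fit (Res against WDA, KO females, edgeR adjusted p = 0.383 and 0.367). Cyp3a57 (0.78, SE 0.29, edgeR adjusted p = 0.0875) and Cyp3a59 (−0.37, SE 0.13, edgeR adjusted p = 0.0702) did not pass. The family sum differed by −0.14 (SE 0.16), less than the spread between mice.

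In WT females the same 4 genes had the same order of groups with wider spread. Cyp3a16 had 2, 5 and 0 counts in the WDA mice 5, 6 and 7 and 145, 478 and 61 counts in the Res mice 1, 12 and 13, and Cyp3a41a went from 22.7, 127 and 4.53 CPM to 511, 1944 and 237. Cyp3a44 was at 1.79, 5.37 and 1.11 CPM and then at 35.6, 60.9 and 6.71, and Cyp3a41b at 2.08, 1.81 and 0.181 and then at 9.36, 59.9 and 5.50. The groups did not overlap in any of the 4, and the lowest mouse of each group was one of the libraries with many bile duct transcripts (WDA 7 and Res 13).

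Of 9 members tested, 0 passed edgeR's adjusted p, as for all genes (0%). At an unadjusted p under 0.05 there were 5 (13.6% of all genes), DESeq2 gave 3 (3.07%), and 6 had no overlap (20.4%), all higher in Res. The fitted log2 changes were 6.55 for Cyp3a16 (SE 1.18, edgeR adjusted p = 0.189), which rests on the few WDA counts above, 4.25 for Cyp3a41b (SE 1.17, edgeR adjusted p = 0.239), 3.66 for Cyp3a44 (SE 0.90, edgeR adjusted p = 0.226) and 4.14 for Cyp3a41a (SE 1.34, edgeR adjusted p = 0.283). Cyp3a57 differed by 1.77 (SE 0.44, edgeR adjusted p = 0.227), between 0.297 to 0.724 CPM in WDA and 1.46 to 2.42 in Res. By DESeq2, Cyp3a16, Cyp3a44 and Cyp3a41b passed. Without WT WDA female 7 or WT Res female 13, 0 members passed in edgeR, and the 4 female-biased members stayed higher in Res. Cyp3a11 did not differ beyond its spread (0.03, SE 0.38), nor did the family sum (0.31, SE 0.32), whose sign turned (−0.02) without the libraries rich in bile duct transcripts.

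In WT males, 6 members passed the filter and Cyp3a25 and Cyp3a41a, 2 of them, passed edgeR's adjusted p, against 10.9% of all genes. DESeq2 gave 3 (13.8%), adding Cyp3a13, and 4 had no overlap (36%), all higher in Res. Cyp3a25 was at 427, 509.7 and 581 CPM in WDA and at 687, 765 and 740.2 in Res (log2 change 0.55, SE 0.13, edgeR adjusted p = 0.0355). Cyp3a41a rose from 10.3, 0 and 1.89 counts to 43.7, 22.2 and 369.98 counts (log2 change 5.02, SE 1.29, edgeR adjusted p = 0.0447). As CPM the Res males had 1.31 to 19.6, against 237 to 1944 in WT Res females and 4.53 to 127 in WT WDA females. Both calls were kept without WT Res male 9, the library rich in bile duct transcripts that had the most Cyp3a41a of these males. Both calls were lost without WT WDA male 19, 20 or 21, which left 0 members called, and 1 was left without WT Res male 7 or 8. Both were also lost with 1 spread for all 9 groups (edgeR adjusted p = 0.266 for Cyp3a25 and 0.184 for Cyp3a41a). Cyp3a41a did not pass with library totals in place of TMM (5.22, edgeR adjusted p = 0.0559) or on FPKM (1.72 on the log2(FPKM + 1) scale, limma adjusted p = 0.158), and Cyp3a13 passed in both. Cyp3a13 differed by 0.38 (SE 0.10, edgeR adjusted p = 0.0537) and Cyp3a57 by 1.10 (SE 0.36, edgeR adjusted p = 0.0812).

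In KO males, 7 members were tested and 0 passed (0% of all genes), with 4 at an unadjusted p under 0.05 (6.43%), 0 by DESeq2 (0.62%) and 3 without overlap (12.9%). Cyp3a13 went from 178, 223 and 241 CPM to 348, 295 and 267 (log2 change 0.52, SE 0.21, edgeR adjusted p = 0.741) and Cyp3a25 from 494, 311 and 483 to 848, 594 and 586 (0.67, SE 0.28, edgeR adjusted p = 0.764). Cyp3a41a was at 13.2, 2.12 and 0.343 CPM in WDA and at 427, 3.51 and 6.99 in Res mice 5, 6 and 11 (4.83, SE 1.97, edgeR adjusted p = 0.751), and Cyp3a41b differed by 4.67 (SE 1.96, edgeR adjusted p = 0.763). Both values rest on KO Res male 5. Without the libraries rich in bile duct transcripts, mouse 5 among them, they turned to −0.36 and −0.34.

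KO Res male 5 had the highest female-biased members of the 12 males: 427 CPM of Cyp3a41a, 20.9 of Cyp3a41b, 12.3 of Cyp3a44 and 9.55 of Cyp3a16, where the other 11 males had at most 19.6, 1.64, 1.06 and 0.583. The WT WDA female 7 had 4.53, 0.181, 1.11 and 0 CPM, so for Cyp3a41a, Cyp3a41b and Cyp3a16 some of the other males also lay within the range of females. Its summed level of 15 other genes known to be higher in female liver was 892 CPM, against 69.8 to 629 in the other males and 1721 to 3171 in females. Sult2a1, a sulfotransferase of steroids and bile acids in that list, was at 130.2 CPM there and at 0 to 4.78 in the other males. The Y-linked gene Ddx3y was at 37.8 CPM, against 47.7 to 80.4 in the other males and at most 0.513 in females. The part of the bile duct transcripts in these values was not tested.

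**Figure D3:**
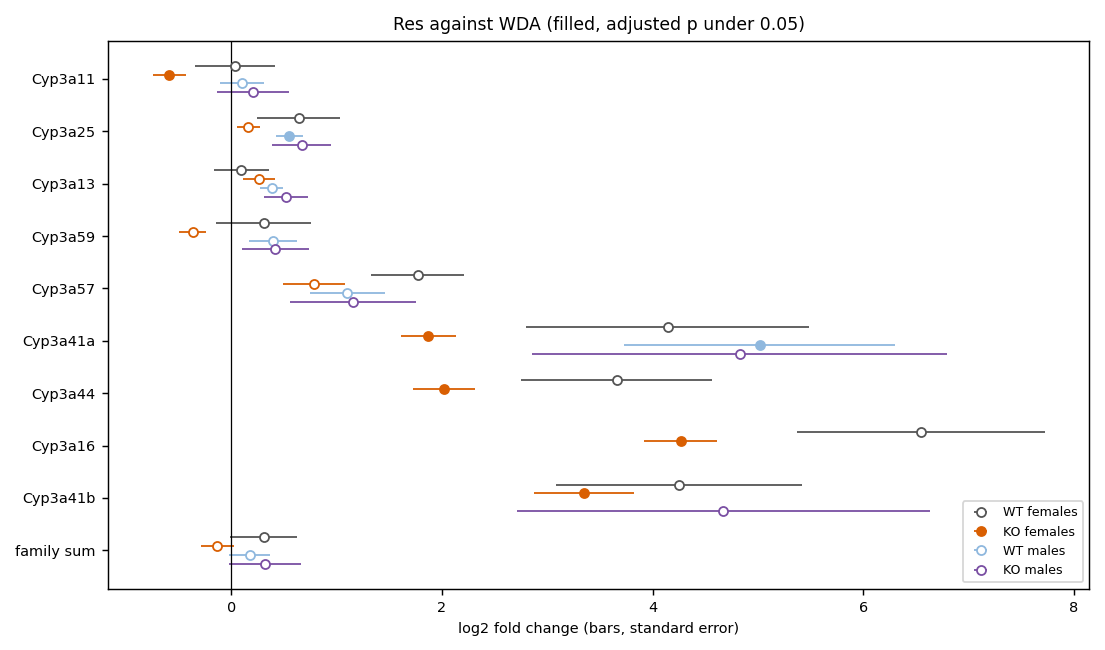
Log2 fold change, Res against WDA, with its standard error as the bar, for each member tested and the family sum in WT females, WT males, KO females and KO males, 3 mice per group. Filled points have an edgeR adjusted p under 0.05: Cyp3a16, Cyp3a41a, Cyp3a41b, Cyp3a44 (up) and Cyp3a11 (down) in KO females, and Cyp3a25 and Cyp3a41a (up) in WT males.

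Loss of Kdm5b was compared with control vector within each stage and sex. In WDA females, all 3 KO livers were above all 3 WT livers for the 4 female-biased members. Cyp3a41a was at 246, 461 and 366 CPM against 22.7, 127 and 4.53 in WT, Cyp3a44 at 9.59, 25.7 and 14 against 1.79, 5.37 and 1.11, and Cyp3a41b at 3.68, 6.88 and 4.28 against 2.08, 1.81 and 0.181. Cyp3a16 had 15, 65 and 34 counts against 2, 5 and 0. Of 9 members tested, 0 passed edgeR's adjusted p, as for all genes (0%), 4 had an unadjusted p under 0.05 (3.11% of all genes), 2 passed by DESeq2 (0.0645%) and 5 had no overlap (8.82%). The log2 changes were 4.01 for Cyp3a16 (SE 0.91), 2.58 for Cyp3a44 (SE 0.62), 2.80 for Cyp3a41a (SE 1.02) and 1.89 for Cyp3a41b (SE 0.71), each with an adjusted p of 0.978 in edgeR. By DESeq2 the adjusted p was 0.0322 for Cyp3a16 and 0.0257 for Cyp3a44. Without WT WDA female 7 none of them passed in edgeR either. The family sum differed by 0.26 (SE 0.31).

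In Res females, the 4 genes were high in both groups. Cyp3a16 was at 33.3, 46.1 and 45.4 CPM in KO and 8.17, 25.8 and 2.85 in WT, the one member whose groups did not overlap (log2 change 1.72, SE 0.63, edgeR adjusted p = 0.201). Cyp3a44 was at 72.5, 56.9 and 70.6 CPM against 35.6, 60.9 and 6.71 (0.92, SE 0.60, adjusted p = 0.423), Cyp3a41b at 22.6, 89.2 and 39.7 against 9.36, 59.9 and 5.50 (0.97, SE 0.85, adjusted p = 0.561) and Cyp3a41a at 1053, 1769.5 and 1097 against 511, 1944 and 237 (0.49, SE 0.66, adjusted p = 0.715). Without WT Res female 12 the log2 change (KO against WT, Res females) was 1.78 for Cyp3a41a, 2.75 for Cyp3a41b, 1.65 for Cyp3a44 and 2.91 for Cyp3a16, and none passed (edgeR adjusted p of 0.115 to 0.252). Without WT Res female 13 they were 0.05, 0.50, 0.43 and 1.25, and without KO Res female 3 Cyp3a41b was 0.28. Cyp3a11 was at 3195, 4102 and 3679.9 CPM against 5085, 3017 and 6632 (−0.47, SE 0.28, edgeR adjusted p = 0.386). For Cyp3a13 the difference was 0.38 (SE 0.19, adjusted p = 0.323), for Cyp3a25 −0.17 (SE 0.14, adjusted p = 0.552), for Cyp3a59 −0.26 (SE 0.26, adjusted p = 0.628) and for Cyp3a57 −0.02 (SE 0.32, adjusted p = 0.980). Of 9 members tested, 0 passed edgeR's adjusted p (0% of all genes), 1 had an unadjusted p under 0.05 (19.2%), 0 passed by DESeq2 (4.7%) and 1 had no overlap (26.2%). The family sum differed by −0.20 (SE 0.19, edgeR adjusted p = 0.589).

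In males, no member passed between KO and WT, and the ranges of the groups overlapped for every member tested. In WDA males, 6 members were tested, 0 passed (0% of all genes), 1 had an unadjusted p under 0.05 (7.71%), 0 passed by DESeq2 (0.137%) and 0 had no overlap (16.3%). The 1 was Cyp3a41a, at 224, 50 and 5.64 counts in KO and 10.3, 0 and 1.89 in WT (log2 change 4.37, SE 1.48, edgeR adjusted p = 0.588). In Res males, 7 were tested, 0 passed (0%), 1 had an unadjusted p under 0.05 (1.47%), 0 passed by DESeq2 (0.0555%) and 0 had no overlap (4.64%). The 1 was again Cyp3a41a (4.21, SE 1.74, edgeR adjusted p = 0.9998), which turned to −0.62 without KO Res male 5. Cyp3a11 differed by −0.15 (SE 0.33) in WDA males and −0.04 (SE 0.20) in Res males, and the family sum by −0.16 (SE 0.32) and −0.00065 (SE 0.21).

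**Figure D4:**
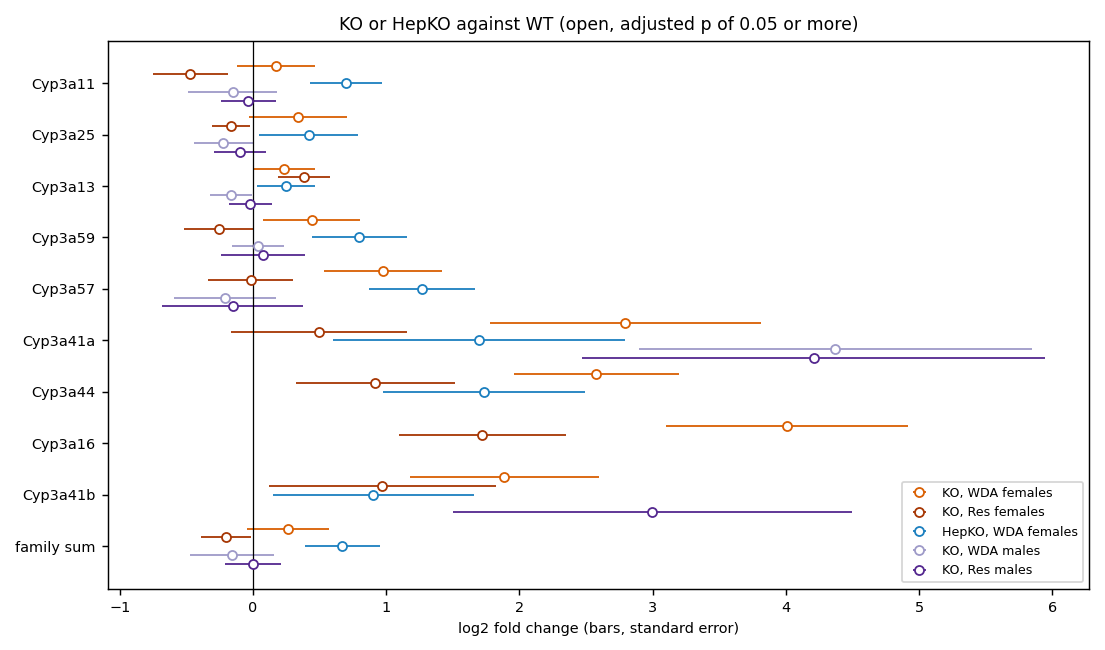
Log2 fold change of KO or HepKO against WT, with its standard error as the bar, for each member tested and the family sum, in WDA females, WDA males, Res females and Res males, 3 mice per group. No member has an edgeR adjusted p under 0.05, so all points are open, and the 4 female-biased members lie between 1.89 and 4.01 in KO WDA females.

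Among WDA females, the HepKO livers had the highest Cyp3a11. It was at 8589.6, 7997 and 6974 CPM, against 5769, 5417 and 3305 in WT and 4676, 5359 and 6473 in KO, so the 3 HepKO livers were above both other groups. Against WT, 8 members were tested (Cyp3a16 was under the filter), 0 passed edgeR's adjusted p (0% of all genes), 2 had an unadjusted p under 0.05 (10.1%), 0 passed by DESeq2 (1.76%) and 3 had no overlap (18.6%), all higher in HepKO. Cyp3a11 differed by 0.70 (log2, SE 0.27, edgeR adjusted p = 0.473) and Cyp3a57 by 1.27 (SE 0.40, edgeR adjusted p = 0.389). Cyp3a59 was the third, at 183, 187 and 169 CPM against 112, 148 and 49.5. The family sum differed by 0.67 (SE 0.28, edgeR adjusted p = 0.4998), and the exact permutation test over the mice gave p = 0.1, the smallest that 3 against 3 allows. Without WT WDA female 7 the difference of the family sum was 0.44 (SE 0.10, edgeR adjusted p = 0.0485), a smaller value with less spread.

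Against KO, 9 members were tested, 0 passed (0.0162% of all genes), 4 had an unadjusted p under 0.05 (5.73%), 0 passed by DESeq2 (0.308%) and 3 had no overlap (10.9%). Cyp3a11 was higher in HepKO by 0.51 (SE 0.15, edgeR adjusted p = 0.651) and Cyp3a59 by 0.345 (SE 0.125, edgeR adjusted p = 0.786). Cyp3a41b differed by −0.99 (SE 0.34, edgeR adjusted p = 0.778) and Cyp3a41a by −1.11 (SE 0.45, edgeR adjusted p = 0.850). Cyp3a41a was at 76.1, 111 and 309.9 CPM in HepKO, which overlaps both KO and WT. The family sum differed by 0.39 (SE 0.13, edgeR adjusted p = 0.753). HepKO and KO were compared with the same 3 WT females, so the differences of HepKO and of KO from WT are not independent of each other.

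Differences between contrasts were tested as interactions. The effect of KO in Res females minus that in WDA females ranged from −2.30 (SE 1.40, Cyp3a16) to 0.16 (SE 0.32, Cyp3a13) over the 9 members, and was −0.45 (SE 0.35) for the family sum. None of 9 passed edgeR's adjusted p (0% of all genes), 0 had an unadjusted p under 0.05 (6.21%) and 0 passed by DESeq2 (0.00773%). The effect of KO in females minus that in males after resolution was −3.71 (SE 2.04) for Cyp3a41a and −0.42 (SE 0.34) for Cyp3a11, with 0 of 9 passing (0%), 0 at an unadjusted p under 0.05 (11.5%) and 0 by DESeq2 (0.592%). The effect of Res in WT females minus that in WT males was −0.85 (SE 2.28) for Cyp3a41a and −0.05 (SE 0.45) for Cyp3a11, with 0 of 9 passing (0.0076%), 0 at an unadjusted p under 0.05 (7.71%) and 0 by DESeq2 (0.57%). By edgeR, the female-biased members passed between Res and WDA in KO females and not in WT females. In the interaction test this contrast was not shown to differ between KO and WT.

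Genes around the family were read from lists of known partners. PXR (Nr1i2) and CAR (Nr1i3) did not pass in a comparison of Res with WDA or of females with males. Nr1i2 was at 57.8 to 123 CPM over all libraries, and Nr1i3 at 27.2 in WT WDA female 7 and 45.4 in KO WDA male 17 against 104 to 310.5 in the others. In KO females, Res against WDA, 2 of 13 regulators passed, where 20.4% of all genes did, and both fell, Foxa1 (−0.71, edgeR adjusted p = 0.0480), a pioneer factor, and Nr0b2 (−0.86, adjusted p = 0.0302), the bile acid-induced repressor SHP. Their median was −0.19, beside 0.01 over all genes. Por, the electron donor of microsomal P450 enzymes, rose by 0.61 (edgeR adjusted p = 0.0284), the 1 of 4 electron donors to pass (20.4% of all genes). Of 17 tested targets of CAR and PXR, 2 rose (Gadd45b 1.70, Cyp2c37 0.54) and 2 fell (Gstm3 −0.65, Cyp2c29 −0.41), a share near the 20.4% of all genes, with a median of −0.12. In WT males, Res against WDA, 3 of 18 fell (Gstt1 −0.73, Aldh1a7 −0.66, Abcc2 −0.44) and 0 rose, where 10.9% of all genes passed, with a median of −0.11 beside 0.02 over all genes. Cyb5a fell by 0.68 there (edgeR adjusted p = 0.0164).

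Of 15 other genes known as female-biased in mouse liver, 6 rose and 1 fell in KO females, Res against WDA, where 20.4% of all genes passed, with a median of 0.86 beside 0.01 over all genes. Sult2a1 rose by 6.36 (edgeR adjusted p = 0.000882), from 1.14, 6.52 and 1.26 CPM to 142, 432 and 176, and Cux2, a female-specific transcription factor of liver, by 4.59 (adjusted p = 0.00194). Sult3a1 rose by 2.04, and the organic anion transporter genes Slc22a26 and Slc22a29 by 1.33 and 1.34, while Cyp2b9, a female-biased P450, fell by 1.10. In WT females 0 of these 15 passed (0% of all genes), with a median of 1.14 beside −0.02. Of 11 genes of growth hormone signalling through STAT5, 5 rose and 1 fell in KO females, again beside 20.4% (Socs2 2.06, Igf1 0.71, Igfals 0.65, Cux2 and Trim24 up, Stat5b −0.50). In WT males 3 rose (Socs2 2.11, Cux2 3.39 and Stat5a 0.43) and 1 fell (Ghr −0.48), where 10.9% of all genes passed. Of 11 tested enzymes of oxysterols and bile acids, a class of CYP3A substrates, 3 rose and 2 fell in KO females (20.4% of all genes). Among them, Cyp27a1, the sterol hydroxylase of mitochondria, rose by 1.07 (edgeR adjusted p = 0.000611) and Cyp51, a sterol demethylase, by 2.38. Cyp27a1 was also higher in Res in WT females (102 to 224 CPM in WDA, 257 to 485 in Res). In WT males it was at 328 to 389 CPM in WDA and 421 to 555 in Res. In Res females, KO (434 to 480 CPM) overlapped WT.

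Over the 15 female libraries the 4 female-biased members followed one another, with Spearman's rho of log2 CPM between 0.896 and 0.961. Cyp3a57 also followed the 4, with rho of 0.721 to 0.811, and so did Cyp3a25, with 0.593 to 0.671. For Cyp3a13 rho with the 4 was 0.289 to 0.382, and for Cyp3a59 −0.118 to −0.293. Cyp3a11 followed Cyp3a59 (0.846), Cyp3a25 followed Cyp3a57 (0.893), and Cyp3a11 ran against the 4, with rho of −0.418 to −0.557. These libraries share stage, vector and the differences in tissue described above, and reads of the 4 can be shared. Among 9999 genes outside the family, the 5 most like the sum of the 4 in these libraries were Nbn (0.918), Sult2a1 (0.889), Hsd17b7 (0.875), Epc2 (0.875) and Ibtk (0.868). Over all 27 libraries the 5 most like Cyp3a11 were Zfp768 (0.722), Zadh2 (0.689), Akap7 (0.684), Ldlrad4 (0.683) and Nqo2 (0.670). These are descriptions over libraries of different groups.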

How the data were processed

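The authors deposited, for each of 27 liver libraries in 4 tables, an expected count per gene, which the authors left without normalization, and an FPKM value, scaled for length and library. The submitters' processing notes name HISAT, Bowtie2 and the build GRCm38.p6. The tool behind both columns is not given in the sources used here. Between 7.34% and 8.09% of the counts were not whole, and all were rounded. Groups came from the labels, and a gene absent from a table was given 0 there. The labels do not say more than that each library is a mouse of its group, so p-values measure the spread between these mice.

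Counts were tested with edgeR 4.0.16 (R 4.3.3): filterByExpr with a minimum count of 10, TMM, glmQLFit and glmQLFTest on the groups compared, and Benjamini-Hochberg adjustment over all genes at 0.05. Sums over members were fitted as further rows. The SE of a log2 change was computed as its size over the root of its F value. DESeq2 1.42.0 was an alternative, and limma 3.58.1 on log2(FPKM + 1) another. CPM used TMM over the 27 libraries. Exons, coding identity and shared windows were computed from GENCODE transcripts, and promoter identity and motifs from RefSeq promoter windows. Identities came from alignments with Biopython 1.88, and all 9 members matched. The tests were checked on simulated data with the same spread for all genes and changes set only in well-counted genes outside the family. That check does not cover members with low counts or wide spread, such as the female-biased ones. No pair of libraries of a group was a repeat, with at most 266 genes at equal counts.

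The members and gene lists were chosen with earlier results of these data known. All 9 members are named. Fold changes with tests are printed for members with an unadjusted p under 0.05 and for all members in KO against WT of Res females. Alternatives were DESeq2, RLE and upper quartile scaling, other filters (none, or 10 counts in all samples), 1 spread for all 9 groups, FPKM, leaving out each mouse and a replicate block. Library totals without scaling factors, and leaving out the 5 libraries with most bile duct transcripts, were chosen after seeing the data. Protein sequences were not analysed here.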

Additional observations from a re-analysis of the deposited data

How the results depend on the processing

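Over 15 comparisons, the family sum kept its direction and its side of the threshold in 127 of 134 results under another setting and in 101 of 108 that left out a mouse, and the number of members called stayed within 1.5 times in 120 and 100. The main fit called members only in Res against WDA of KO females and of WT males, and the family sum passed in no comparison. Elsewhere an unchanged number of members means that none was called in either fit. These tallies therefore say little on how steady a call is. Leaving out the 5 libraries rich in bile duct transcripts turned the family sum to −0.0236 in WT females (Res against WDA), 0.0461 in WDA males (KO against WT) and −0.13 for the Res effect in females against males. The same setting gave 0.44, now called, for HepKO against WT, 5 and 3 members called for females against males in WDA and Res, and −0.36 and −0.34 for Cyp3a41a and Cyp3a41b in KO males. Library totals without scaling factors, which moved the median of all genes by −0.23 to 0.35 between comparisons, turned the family sum to 0.00524 in WDA males and 0.0155 in Res males, and FPKM turned it to 0.0232 in WDA males. The cause of these turns was not tested.

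Members called by DESeq2 were 3 in WT females (Res against WDA), 2 in KO against WT of WDA females, and 2 and 4 for females against males in WDA and Res. With a spread shared by all groups they were 4 in WT females, 0 in WT males and 2 in KO females (Res against WDA), and 1 and 3 for females against males. In WDA, library totals gave 1 for females against males, and in Res, no filter and FPKM gave 1 each. Leaving out each mouse gave 0 to 2 in WT males (Res against WDA), and 0 to 5 and 0 to 2 for females against males in WDA and Res. The family sum then ranged from −0.31 to 0.0882 (KO against WT, WDA males), −0.12 to 0.11 (Res males), 0.44 to 0.80 (HepKO against WT) and −0.10 to 0.30 (Res effect in females against males). Cyp3a57 in KO against WT of Res females, at −0.02, was 0.0204 with the shared spread and −0.18 to 0.22 when each mouse was left out, positive without WT mouse 1 or KO mouse 2. Cyp3a41a, KO against WT, Res males, then ranged from −0.62, without KO mouse 5, to 6.19.

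Mouse numbers 2 and 3 recur in both groups of KO females, in different experiments, and do not pair mice. With the number as a replicate block, 5 members were called in Res against WDA and the family sum differed by −0.21 (SE 0.16), and no other call changed.

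The stage is tied to the experiment, so in Res against WDA the 2 cannot be told apart. With 3 mice per group, the female-biased members varied widely between WT females. Counts of Cyp3a16, Cyp3a41b and Cyp3a44 in males and of Cyp3a57 in all groups were near the floor, and Cyp3a41a and Cyp3a41b cannot be told apart by most reads.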

Other observations

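The lists beside the family held other sex-biased genes. Of 15 tested genes known as male-biased in mouse liver, 11 were lower in WT females than in WT males in WDA and 10 in Res, with medians of −3.71 and −3.65, where 0.843% and 0.545% of all genes passed. Cyp4a12a, a male-specific fatty acid hydroxylase, differed by −10.35 in WDA (edgeR adjusted p = 2.18e-05) and −6.48 in Res (adjusted p = 0.00195). Of 15 female-biased genes outside the family, 4 of 14 tested were higher in females in WDA and 7 of 15 in Res. In WT males, Res against WDA, Hsd3b5 (−2.86), Nudt7 (−0.72) and Cyp4a12a (−0.45), all of the male-biased list, fell, as did Cyp7a1 (−0.79), the rate-limiting enzyme of bile acid synthesis, while Cyp51 rose by 0.89. In KO females Cyp39a1, an oxysterol hydroxylase, rose by 0.95 and Cyp46a1, a cholesterol hydroxylase, fell by 1.16.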
